A study of Mus musculus with 18 samples.

Results

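The genes described here carry dietary fat through the enterocyte, the absorptive cell of the small intestine: Cd36, Fabp1, Fabp2, Mogat2, Dgat1, Mttp, Apob, Apoa1, Apoa4 and Apoc3. They were taken by gene name from the count table of the series, where each had 1 row, so that 10 of the 55335 genes of the table are members, and all 10 passed the filter on low counts. RNA-Seq was performed on small intestinal crypts of mice aged 8 to 12 weeks. All mice carried PRMT1fl/fl, a Prmt1 gene flanked by LoxP sites on both alleles. KO mice also carried Vil-CreERT2, a tamoxifen-inducible Cre under the villin promoter, which is active in the intestinal epithelium, whereas their WT littermates lacked it. Tamoxifen was given to all mice, the WT included, at 2 mg per injection, 2 times before collection at day 2 and 5 times before collection at days 7 and 14, so time and the number of injections cannot be told apart between day 2 and the later days. There were 3 libraries from 3 mice in each of the 6 groups and 18 in all. The study asked what loss of PRMT1, an arginine methyltransferase, does to gene expression in the adult intestinal epithelium.

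Dietary triglyceride is digested in the lumen, and the fatty acids and monoglycerides that result enter the enterocyte across its brush border. CD36 is a membrane protein that binds long-chain fatty acids, and FABP1 and FABP2 carry fatty acids through the cytosol. MOGAT2 and DGAT1 rebuild triglyceride from monoglyceride, MTTP loads it onto APOB to form the chylomicron, and APOA1, APOA4 and APOC3 are apolipoproteins on the surface of the particle. These genes are known for high expression in mature enterocytes of the villus and low expression in the dividing cells of the crypt. Fewer cells of a type and less RNA per cell cannot be told apart in these bulk libraries.

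Libraries held 12844642 to 31493484 counts in total, and the 10 members held 0.522% to 2.58% of it. The member counts themselves ranged from 101 for Cd36 to 286419 for Apob in a single library. Prmt1 was lower in KO than in WT on each day (log2 fold change -0.89, -0.59 and -0.72 at days 2, 7 and 14), with all KO libraries below all WT libraries. Markers of stem and cycling cells and of Paneth cells, which define a crypt, were found in every group with summed levels of at least 959 and 1226 CPM (library-size-scaled counts, with TMM factors). Summed markers of enterocytes ran from 7610 to 31874 CPM in the same libraries. The part of villus cells in these crypt preparations was not tested. Sex is not in the labels, the study reports matching KO and WT by sex, and its part in the results below was not tested.

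Levels were compared per length. Mean RPKM (CPM per kilobase of exon) over the 18 libraries was 1661 for Apoa4, 1655 for Apoa1, 1512 for Fabp2 and 1408 for Fabp1. These 4 genes exchanged places between libraries, since Apoa4 was above Apoa1 in 8 of 18 libraries, Apoa1 above Fabp2 in 11 and Fabp2 above Fabp1 in 11. Fabp1 was above Apob in all 18 libraries. Mean RPKM was 374 for Apob and 333 for Mttp, and Apob was the higher of the pair in 13 of 18 libraries. Dgat1 followed at 158 RPKM, Mogat2 at 99.9 and Apoc3 at 69.8, with Dgat1 above Mogat2 in all 18 libraries and Mogat2 above Apoc3 in 16. Cd36 was last in every library, at 7.98 RPKM. Among the 21349 genes tested, Apoa4 ranked 40 and Apoc3 ranked 654 by mean RPKM, whereas Cd36 ranked 5928.

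All 10 members were compared between KO and WT on each day. At day 7, Fabp1 and Fabp2 were called higher in KO than in WT crypts, and 9 of the 10 members had a log2 fold change above 0, with a median of 0.69 against 0.02 over all genes tested. At day 14 all 10 members were above 0 with a median of 0.69 (0.0022 over all genes), and none passed the threshold in the model of all libraries. Leaving out KO replicate 2 gave a day 14 median of 0.45, while leaving out WT replicate 1 gave 0.34 and WT replicate 3 gave 1.09. At day 2 none was called, and the median was -0.14 (-0.0048 over all genes), with no stable direction: it was 0.12, with 8 of 10 above 0, when WT replicate 3 was left out, and -0.39 when WT replicate 2 was. A gene was called when edgeR's quasi-likelihood test gave it a Benjamini-Hochberg adjusted p below 0.05 among all genes tested. The background was 0.0328% of genes called at day 2, 17.3% at day 7 (7.11% higher in KO) and 7.92% at day 14 (3.23% higher). The 2 of 10 members called higher at day 7 stand against that 7.11%. Members with an unadjusted p under 0.05 numbered 0 at day 2, 5 at day 7 and 4 at day 14, against 3.33%, 29.9% and 21.6% of all genes.

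The position of the single libraries gives the same comparison without a model. At day 7 all 3 KO libraries lay above all 3 WT libraries for 8 members, namely Fabp1, Fabp2, Mogat2, Dgat1, Mttp, Apoa1, Apoa4 and Apoc3, where 15.9% of all genes did so. Apob and Cd36 overlapped. KO day 7 replicate 1 was the highest of its group for 9 of the 10 members, and in the same library the summed markers of stem and cycling cells (959 against 1493 and 1609 CPM) and of Paneth cells (1226 against 3124 and 3295 CPM) were the lowest of the group and those of enterocytes (22866 against 17394 and 17082 CPM) the highest, the part of which was not tested. Without it 8 of the 10 members were above 0 at day 7, with a median of 0.51, and 0 were called. At day 14 this was so for Fabp1 and Dgat1, against 12.4% of all genes, and at day 2 KO and WT libraries overlapped for every member, against 8.16% of all genes that did not overlap in either direction.

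**Figure D1:**
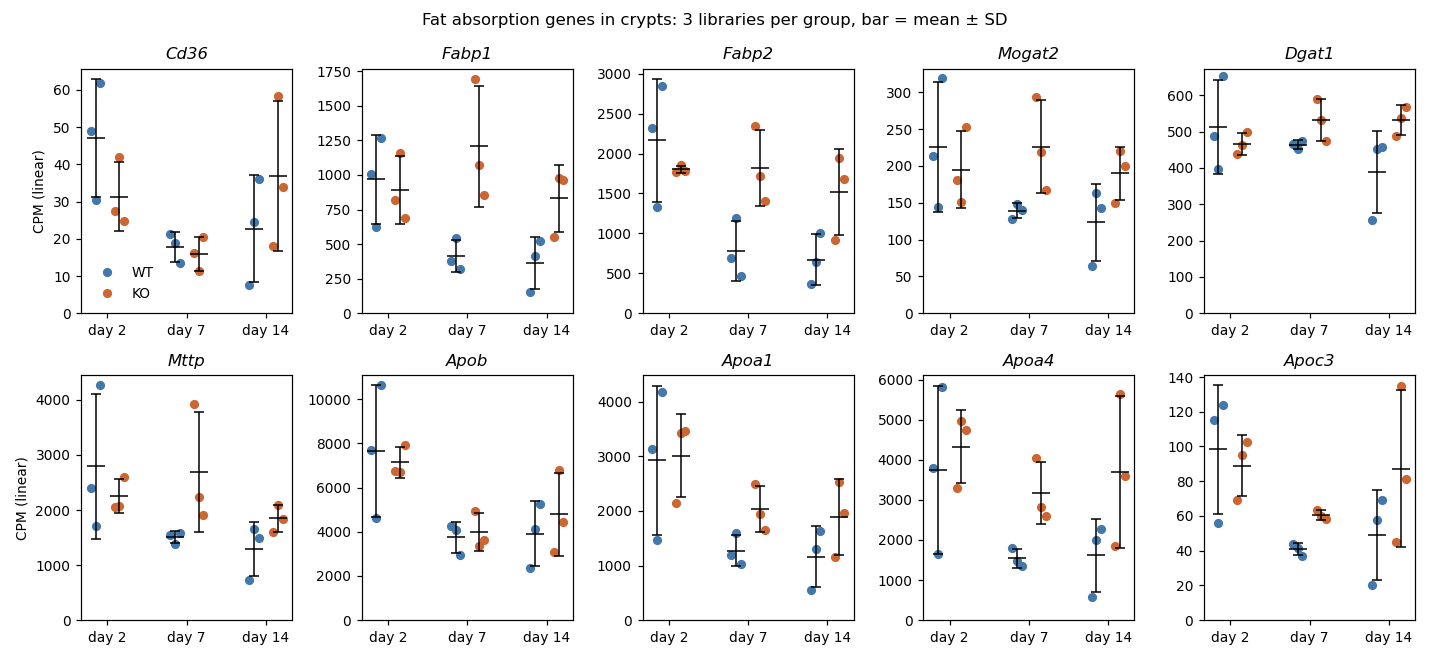
Level of each member in CPM (linear axis from 0) in every library, by day, WT in blue and KO in orange. Points are single libraries, 3 per group, and bars are means ± SD. At day 7 the KO points of Fabp1 (853 to 1692 CPM) sit above the WT points (321 to 541 CPM), whereas at day 2 the groups of every member overlap.

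Of the fatty acid carriers, Fabp1, the liver-type binding protein that is also abundant in the proximal intestine, showed the largest difference among the members at day 7. Its level in the 3 KO libraries of day 7 was 1692, 1074 and 853 CPM, and in the 3 WT libraries 375, 541 and 321 CPM. The lowest KO library was above the highest WT library, and the ratio of the means was 2.93 (log2 fold change 1.55, SE 0.40, adjusted p = 0.0129). At day 14 the KO libraries held 554, 976 and 962 CPM and the WT libraries 153, 416 and 522 CPM. The groups again did not overlap, although the margin was small (log2 fold change 1.19, SE 0.40, adjusted p = 0.0776). At day 2 the values were 819.6, 1162 and 688 CPM in KO and 1009, 627 and 1270.2 CPM in WT, which overlapped (log2 fold change -0.12, SE 0.39).

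Fabp2, the intestinal-type binding protein and a gene largely restricted to enterocytes, followed. In KO crypts of day 7 its level was 2342, 1721 and 1402 CPM, and in WT crypts 693, 1198 and 462 CPM. The groups did not overlap and the ratio of the means was 2.32 (log2 fold change 1.22, SE 0.39, adjusted p = 0.0387). The day 14 libraries held 917, 1949 and 1680.1 CPM in KO and 361, 646 and 999.9 CPM in WT. Here KO replicate 1 lay below WT replicate 3, so the groups overlapped (log2 fold change 1.18, SE 0.39, adjusted p = 0.0735). At day 2 the 3 KO libraries were close together at 1774, 1855 and 1778 CPM, and the WT libraries at 2319, 1329 and 2845 CPM lay on both sides of them.

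The day 7 calls were lost when some single libraries were left out, while the log2 fold changes stayed between 1.25 and 1.79 for Fabp1 and between 0.95 and 1.66 for Fabp2. The adjusted p of Fabp1 was 0.0734 without KO replicate 1, 0.0542 without WT replicate 1 and 0.0592 without WT replicate 3. That of Fabp2 was 0.157 and 0.0694 without KO replicates 1 and 2, and 0.125 and 0.1498 without WT replicates 1 and 3. Fabp1 and Fabp2 are also in the fat digestion and absorption list that the study drew from its day 14 increases in these samples, so that list is not independent evidence of their direction.

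The promoters of both genes are shown because they are the members called at day 7. The windows below run from 119 to 60 bases before the start site on the + strand (RefSeq, GRCm38.p6), at chr6:71199760-71199819 for Fabp1 and chr3:122894953-122895012 for Fabp2, and capitals mark letters matching a searched motif.
Fabp1: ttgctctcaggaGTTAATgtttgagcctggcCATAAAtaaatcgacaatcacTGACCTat
Fabp2: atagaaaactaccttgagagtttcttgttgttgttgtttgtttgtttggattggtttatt
The capitals in Fabp1 are, in order, an HNF1 half-site (GTTAAT), the reverse complement of a CDX2 motif (TTTATG) and the reverse complement of a nuclear receptor half-site (AGGTCA), which do not overlap one another. Promoters of 7 of the 10 members were matched in the table, each 300 bases long. Only the bases before the start site were searched, on both strands and in the same way for the promoters of all genes. The HNF1 half-site was found in 6.43% of 32851 promoters and in Fabp1 alone among the members, the CDX2 letters in 10.8% and in Fabp1 and Cd36, and the nuclear receptor half-site in 14.0% and in Fabp1 and Cd36. In Cd36 the last pair overlapped by 2 bases. A TATA motif (TATAAA) was found in 12.4% of promoters and in Fabp1 and Apob. A GATA motif (AGATAA, 9.99% of promoters) and an HNF4-type motif (CAAAGTCCA, 0.384%) were in none of the 7. The searched part of the Fabp2 promoter held no match to any of these letters.

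Of the 3 surface apolipoproteins among the members, Apoa4, whose intestinal expression is known to follow fat absorption, had the largest log2 fold change at days 7 and 14. At day 7 the KO libraries held 4049, 2831 and 2606 CPM and the WT libraries 1802, 1465 and 1348 CPM. All KO libraries lay above all WT libraries, with a ratio of means of 2.06, and the difference did not pass the threshold (log2 fold change 1.04, SE 0.48, adjusted p = 0.158). At day 14 the values were 1849.9, 5645 and 3583 CPM in KO and 579, 2003 and 2261 CPM in WT. KO replicate 1 fell between the WT libraries (log2 fold change 1.19, SE 0.48, adjusted p = 0.152). At day 2 KO crypts were at 4327 ± 906 CPM and WT crypts at 3749 ± 2088 CPM, with 3 libraries each (mean ± SD, as for all such values here).

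Apoa1, the main protein of high density lipoprotein, lies beside Apoc3 and Apoa4 on chromosome 9 of mm10. Apoa1 spans 46228580 to 46230466 (+ strand), Apoc3 46232933 to 46235636 (- strand) and Apoa4 46240696 to 46243459 (+ strand). At day 7 the level of Apoa1 was 2026 ± 421 CPM in KO against 1271 ± 288 CPM in WT, and at day 14 it was 1882 ± 694 against 1161 ± 554 CPM (log2 fold changes 0.67 and 0.70, SE 0.39 each, adjusted p = 0.271 and 0.327). For Apoc3, an inhibitor of lipoprotein lipase, the 3 KO libraries of day 7 lay within 58.0 to 63.7 CPM and the WT libraries within 37.2 to 43.7 CPM. The groups were tight and apart. The model of all libraries, which shares its spread over all groups, gave a log2 fold change of 0.57 with SE 0.42 and adjusted p = 0.405, whereas a model of the day 7 libraries alone called Apoc3 (0.56, adjusted p = 0.0108). That fit called 14.8% of all genes (6.24% higher). It was the only 1 of the 9 other settings to call Apoc3, and 0 of the 6 fits without a single library did. At day 14 Apoc3 ranged from 45.3 to 135 CPM in KO and from 20.02 to 69.2 CPM in WT (log2 fold change 0.82, adjusted p = 0.278).

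Mttp, the transfer protein without which no chylomicron forms, held 3926, 2235 and 1902 CPM in KO at day 7 and 1549, 1388 and 1586 CPM in WT. The groups did not overlap, and KO replicate 1 stood apart from the other KO libraries (log2 fold change 0.83, SE 0.33, adjusted p = 0.0891). Of the 9 other settings without a library left out, 2 called Mttp at day 7. At day 14 the KO libraries held 1609.5, 2095 and 1845 CPM and the WT libraries 729, 1652 and 1489 CPM, which overlapped (log2 fold change 0.52, SE 0.33, adjusted p = 0.387). Apob, its acceptor and the structural protein of the chylomicron, was at 3971 ± 859.7 CPM in KO against 3757 ± 698 CPM in WT at day 7 (log2 fold change 0.08, SE 0.33, adjusted p = 0.906). At day 14 it was at 4784 ± 1868 and 3919 ± 1478 CPM (log2 fold change 0.29, SE 0.33, adjusted p = 0.689). Apob thus had the smallest log2 fold change of the 10 members at day 14, and its groups overlapped on all 3 days.

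Mogat2, which makes diglyceride from the absorbed monoglyceride, held 293, 219 and 167 CPM in KO at day 7 and 128, 148 and 140.5 CPM in WT. The groups did not overlap (log2 fold change 0.70, SE 0.32, adjusted p = 0.154). At day 14 its levels of 149.8, 220.3 and 199.8 CPM in KO and 63.8, 164 and 143 CPM in WT overlapped (log2 fold change 0.62, SE 0.32, adjusted p = 0.284). Dgat1, which adds the last acyl chain and works in many tissues, had the flattest profile of the 10 over the 18 libraries. In KO it was at 532 ± 57.2 CPM against 464 ± 12.1 CPM in WT at day 7, and at 531 ± 41.0 and 388 ± 114 CPM at day 14. The log2 fold changes were 0.20 and 0.45 with SE 0.20 each (adjusted p = 0.563 and 0.202), although the groups did not overlap on either day. At day 7 the margin was negligible, with the lowest KO library at 475.5 CPM and the highest WT library at 475.3 CPM.

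Cd36, the surface receptor for fatty acids and the least abundant member, had the lowest log2 fold change at day 7, and whether it differed from the other members was not tested. The KO libraries held 16.1, 11.3 and 20.5 CPM and the WT libraries 21.3, 18.8 and 13.5 CPM, which overlapped (log2 fold change -0.17, SE 0.50, adjusted p = 0.868). At day 14 it ranged from 18.2 to 58.4 CPM in KO and from 7.63 to 36.1 CPM in WT (log2 fold change 0.68, SE 0.49, adjusted p = 0.477). Day 2 gave 31.4 ± 9.19 CPM in KO against 47.2 ± 15.8 CPM in WT.

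**Figure D2:**
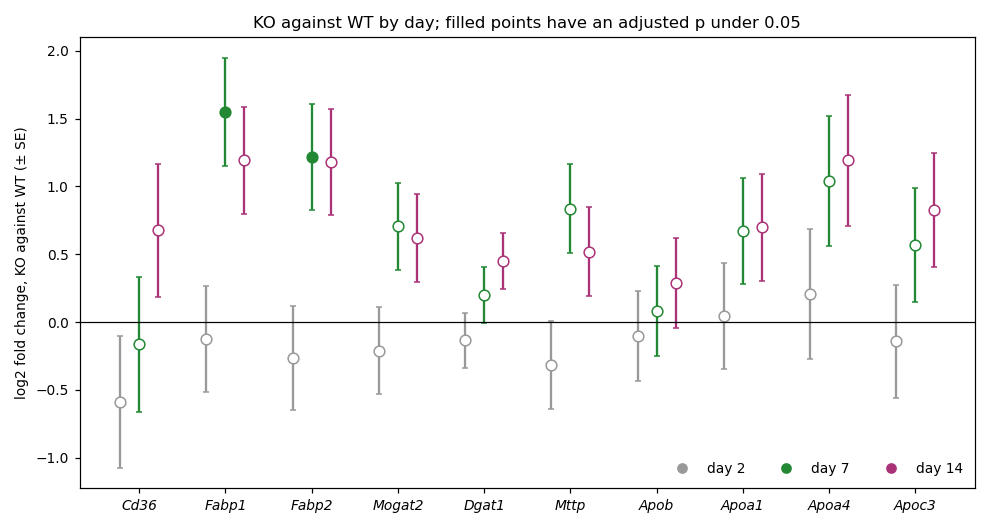
Log2 fold change of KO against WT for each member (horizontal axis) at days 2 (grey), 7 (green) and 14 (purple), with bars of 1 approximate SE. Filled points have an adjusted p under 0.05, which only Fabp1 (1.55) and Fabp2 (1.22) at day 7 have.

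The labels do not say that KO and WT libraries of the same number are pairs. At day 14 they were treated as pairs after seeing the data, since their deviations from the group means correlated over all genes at 0.160 to 0.227. Each of the 6 libraries correlated best with its own number. Single pairs reached 0.381 at day 2 and 0.206 at day 7, so these values do not establish the pairing. With the replicate number as a block within the day, 4 members were called higher at day 14, where this fit called 9.86% of all genes and 4.53% higher. The log2 fold change was then 1.32 for Fabp1 (adjusted p = 0.0216), 1.23 for Fabp2 (adjusted p = 0.00900), 1.28 for Apoa4 (adjusted p = 0.0194) and 0.71 for Mogat2 (adjusted p = 0.0240). Replicate 1 was the lowest library of its group for all 10 members in both KO and WT at day 14. DESeq2's Wald test without the block called 1 member at day 14, Fabp1 (adjusted p = 0.0436), and 9.27% of the genes it tested.

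Whether the KO effect differed between days was tested directly. Between days 7 and 2 the difference was above 0 for all 10 members and passed the threshold for none, where 4.37% of all genes were called. An unadjusted p under 0.05 was given for 3 members, against 18.1% of all genes: Fabp1 (difference 1.67, SE 0.56, adjusted p = 0.105), Fabp2 (1.48, SE 0.55, adjusted p = 0.146) and Mttp (1.15, SE 0.46, adjusted p = 0.184). Between days 14 and 2 it was above 0 for all 10 as well, with none called (1.04% of all genes) and 2 at an unadjusted p under 0.05, Fabp1 and Fabp2 (11.9% of all genes). The comparisons with day 2 share the libraries of that day. Between days 14 and 7 the differences ran from -0.36 for Fabp1 to 0.84 for Cd36, with none called (0% of all genes) and none at an unadjusted p under 0.05 (4.46% of all genes).

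Since the effects of days 7 and 14 were alike in size for most members, their mean was tested as well, a contrast chosen after seeing the data. It called 5 members higher, against 25.7% of all genes called and 11.6% called higher. The mean log2 fold change was 1.37 for Fabp1 (SE 0.28, adjusted p = 0.00164), 1.197 for Fabp2 (SE 0.28, adjusted p = 0.00352), 1.12 for Apoa4 (SE 0.34, adjusted p = 0.0229), 0.68 for Mttp (SE 0.23, adjusted p = 0.0368) and 0.66 for Mogat2 (SE 0.23, adjusted p = 0.0416). Fabp1 and Fabp2 stayed past the threshold in all 8 other settings and with each of the 12 libraries left out. The other 3 did not, and 2 members were called without KO day 7 replicate 1, WT day 7 replicate 2 or 3, or KO day 14 replicate 2, and 3 without WT day 7 replicate 1, KO day 14 replicate 3 or WT day 14 replicate 1. The members not called were Apoa1 (0.68, adjusted p = 0.0792), Apoc3 (0.69, adjusted p = 0.103), Dgat1 (0.32, adjusted p = 0.107), Cd36 (0.26, adjusted p = 0.647) and Apob (0.18, adjusted p = 0.621). With the replicate block within the day, edgeR's test called Apoa1, Apoc3 and Dgat1 as well (adjusted p = 0.0168, 0.01255 and 0.0437). That fit called 28.5% of all genes (13.5% higher).

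The WT groups were compared between days. All 10 members had a log2 fold change below 0 at day 7 against day 2, with a median log2 fold change of -1.22 against 0.01 over all genes, and none was called (0.553% of all genes were), while 9 had an unadjusted p under 0.05, Dgat1 excepted (22.4% of all genes). All WT libraries of day 7 lay below all of day 2 for 6 members, namely Cd36, Fabp1, Fabp2, Mttp, Apob and Apoc3, against 14.1% of all genes. Between days 14 and 2 all 10 were again below 0 with a median of -1.08, and Fabp2 was called lower (log2 fold change -1.69, SE 0.39, adjusted p = 0.0428, 1.61% of all genes called, 0.871% lower), with 8 at an unadjusted p under 0.05 (20% of all genes), and all libraries of day 14 lay below those of day 2 for Fabp1, Fabp2 and Mttp (11.5% of all genes). These comparisons share the WT libraries of day 2. The mean level of Fabp2 in WT was 36.3% of its day 2 level at day 7 and 30.9% at day 14, whereas in KO it was 101% and 84.1% of the KO day 2 level. For Fabp1 the corresponding values were 42.6% and 37.5% in WT and 136% and 93.4% in KO, and for Apob 49.0% and 51.1% in WT and 55.6% and 67.0% in KO. Between days 14 and 7 no member was called in WT (0.0796% of all genes were), none had an unadjusted p under 0.05 (5.18% of all genes), and the log2 fold changes ran from -0.26 to 0.36.

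The call of Fabp2 was lost without any of 4 of the 6 WT libraries of days 2 and 14 (day 2 replicates 1 and 3, day 14 replicates 1 and 2), and without WT day 2 replicate 2 there were 4 members called. DESeq2's Wald test called 6 members lower at WT day 7 than day 2 and 5 lower at day 14, where it called 5.4% and 4.75% of the genes it tested lower. The WT libraries of day 2 were spread widely: replicate 2 was the lowest of its group and replicate 3 the highest for all 10 members, and replicate 3 was the highest of all 18 libraries for 8 of them. WT day 14 replicate 1 was the lowest of all 18 libraries for all 10. For Apoa4 this library held 579 CPM and WT day 2 replicate 3 held 5814 CPM.

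Markers of the enterocyte were examined in the same fit. Of 14 markers, Rbp2, a retinol carrier, was called higher (log2 fold change 1.495, adjusted p = 0.0158) and Lct, the lactase gene, lower (-1.42, adjusted p = 0.0486) in KO at day 7, and Sis, the sucrase-isomaltase gene, was called higher at day 14 (1.15, adjusted p = 0.0229); single marker genes are named here and below because of their values. Markers called were thus 14.3% of the list at day 7 and 7.14% at day 14, near the 17.3% and 7.92% of all genes. In the mean effect of both days, 5 of the 14 were called higher and 1 lower, which is 42.9% of the list against 25.7% of all genes. The median of the 14 was 0.36 at day 7 and 0.61 at day 14. The summed level of the list, to which Mgam contributed most, ran from 17082 to 22866 CPM in KO against 14535 to 16251 CPM in WT at day 7, and from 14200.0 to 20812 CPM in KO against 7610.3 to 14505 CPM in WT at day 14. In WT between days 14 and 2, 5 of the 14 were called lower and all 14 were below 0. Markers of the other epithelial cells differed too at day 7: 6 of 6 enteroendocrine markers were called higher and 0 lower, 5 of 5 Paneth markers lower, and 3 of 8 stem and cycling cell markers lower. At day 14 these counts were 6 of 6 higher, 1 of 5 lower and 2 of 8 lower. Of 5 goblet and 5 tuft cell markers, 2 and 1 were lower at day 7. The part of any of these in the members' levels was not tested, apart from the comparison with the enterocyte markers that follows.

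Each member was therefore set against the mean log2 CPM of the 14 enterocyte markers in the same library, a comparison chosen after seeing the data. The test was an exact two-sided permutation test of KO and WT labels within days 7 and 14, with 400 arrangements and a smallest possible p of 0.005, and was made for each of the 10 members. These p-values are not adjusted for the 10 comparisons, and no member is called from them. Relative to the markers, the KO minus WT difference of Fabp1 was 0.95 on the log2 scale (mean of both days, exact permutation p = 0.005, the smallest possible), that of Fabp2 0.79 (p = 0.015, exact permutation test) and that of Apoa4 0.68 (p = 0.015, exact permutation test). With the median of the markers, without Lct, Rbp2 and Sis, or with any of the 12 libraries left out, the exact permutation p of these 3 members was at most 0.035. This test does not use the pairs that were assumed at day 14. With day 14 labels exchanged only within pairs (160 arrangements, smallest possible p 0.0125), the exact permutation p was 0.0125 for Fabp1 and Apoa4, 0.025 for Fabp2, 0.075 for Apob and 0.025 for Apoc3. For Fabp1 every KO library of day 7 (0.40 to 1.03) and of day 14 (0.14 to 0.70) was above every WT library of its day (-0.78 to 0.01 and -0.64 to -0.08). The difference of Apob was -0.29 (p = 0.04, exact permutation test), and this p was 0.055 with Lct, Rbp2 and Sis left out of the markers and reached 0.08 when single libraries were left out. The differences of the other 6 members ran from -0.16 for Cd36 to 0.25 for Apoc3, with exact permutation p between 0.08 and 0.56. With single libraries left out, the lowest exact permutation p was 0.035 for Apoa1, 0.02 for Apoc3, 0.025 for Mttp and 0.04 for Mogat2.

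**Figure D3:**
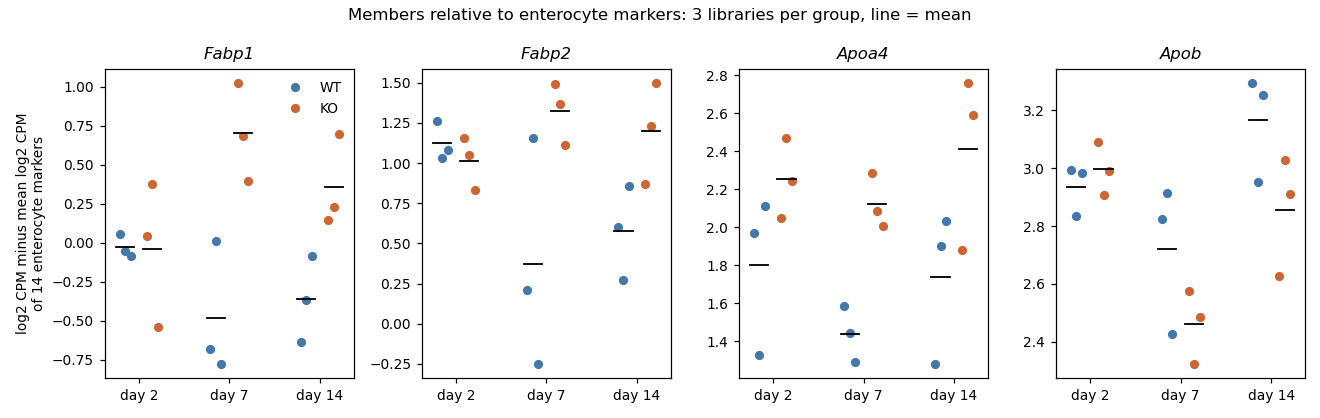
Log2 CPM of Fabp1, Fabp2, Apoa4 and Apob minus the mean log2 CPM of 14 enterocyte markers in the same library, by day, WT in blue and KO in orange. Points are single libraries, 3 per group, and lines are group means. At day 7 and day 14 the Fabp1 points of KO lie above those of WT, while the Apob means of KO lie below those of WT.

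Markers of other cells that can express some of the members were examined. The 5 adipocyte markers summed to at most 0.266 CPM in any library, with Lep at 0 in all 18 and Adipoq at 0 in 15 of 18, whereas Cd36, which is abundant in adipocytes, was at 7.63 CPM or more. Endothelial markers, relevant to Cd36 as well, summed to at most 5.15 CPM, and 1 of the 3 tested, Pecam1, was called higher in KO at day 7 (2.91 ± 1.37 against 1.18 ± 0.0437 CPM, log2 fold change 1.29, adjusted p = 0.0188). The 8 immune cell markers summed to 20.3 to 77.8 CPM and the 6 stromal markers to 9.72 to 145 CPM over the libraries, above Cd36 in many of them, and none of either list was called at day 7 or 14. The part of these cells in the level of Cd36 was not tested. Of 5 hepatocyte markers Fgb was at 0 in 15 of 18 libraries and Alb had at most 21 counts, while Ttr and Apoh had up to 219 and 362 counts. Their sum ran from 11.6 to 24.2 CPM over the libraries, and Ttr was called higher in KO at day 14 (log2 fold change 1.00, adjusted p = 0.00718). The 6 markers of proximal small intestine, Lct among them, summed to 653 to 811 CPM in KO against 942 to 1454 CPM in WT at day 7, and to 728 to 1382 CPM and 555 to 1647 CPM at day 14. The 5 distal markers summed to 373 to 662 CPM in KO against 545 to 659 CPM in WT at day 7, and the part of regional origin in the members' levels was not tested.

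Other genes of fat absorption were taken from 5 lists with 39 genes, of which 38 were tested. At day 7, 6 rose and 1 fell in KO, which is 18.4% of the 38 called against 17.3% of all genes, so the count was near the background. Of the 38, 84.2% were above 0, against 51.6% of all genes, with a median of 0.39 on the log2 scale. At day 14 only Acsl3 was called (2.63% against 7.92% of all genes), and at day 2 none was. In uptake and activation, 3 of 8 were called higher and 1 lower in KO at day 7. Scarb1, a receptor for lipoproteins and sterols, was at 14.8 ± 4.21 CPM in KO and 5.38 ± 3.22 CPM in WT (log2 fold change 1.43, SE 0.38, adjusted p = 0.0162). Slc27a4, a fatty acid transport protein with acyl-CoA synthetase activity, was at 665 ± 199.9 and 329 ± 31.0 CPM (1.01, SE 0.33, adjusted p = 0.0444). Acsl3, an acyl-CoA synthetase, had a log2 fold change of 0.50 at day 7 (adjusted p = 0.0300) and of 0.81 at day 14 (adjusted p = 0.00252). Slc27a2, another transport protein of that family, was lower in KO at day 7, at 57.6 ± 11.8 CPM against 106 ± 13.1 CPM in WT (-0.88, SE 0.19, adjusted p = 0.00307).

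In glyceride and cholesterol ester synthesis 1 of 7 genes was called at day 7, Lpin2, a phosphatidate phosphatase (log2 fold change 0.67, adjusted p = 0.0104), and all 7 were above 0. In chylomicron assembly and secretion 2 of 12 tested genes were called higher in KO at day 7. Apoc2, the activator of lipoprotein lipase, was at 271 ± 103 CPM in KO and 77.3 ± 13.1 CPM in WT (1.81, SE 0.45, adjusted p = 0.0119), and Apobec1, the deaminase that edits Apob mRNA, was at 28.8 ± 2.91 and 18.6 ± 1.199 CPM (0.63, SE 0.14, adjusted p = 0.00432). None of 3 genes of sterol efflux and none of 8 transcription regulators was called at day 7 or 14. In the mean effect of both days 1 of each was called higher, Abca1, a cholesterol exporter (0.67, adjusted p = 0.0157), and Creb3l3, a transcription factor of lipid metabolism (0.81, adjusted p = 0.00954), both named after their values were seen. In that contrast 25.7% of all genes were called and 11.6% were higher, and of all 38 genes 13 were called higher and 2 lower, which is 39.5%. Creb3l3 was at 264 ± 80.7 CPM in KO against 169 ± 24.9 CPM in WT at day 7 and at 210.3 ± 43.8 against 106 ± 46.3 CPM at day 14. Scarb1 and Slc27a4 stand in the study's own list of day 14 increases as well, drawn from these samples, although neither was called at day 14 here. Without KO day 7 replicate 1 or WT day 7 replicate 2 only 3 of the 38 were called at day 7, without WT day 7 replicate 3 there were 4, and without KO day 7 replicate 3 there were 12. With the block within the day the count at day 14 was 8.

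**Figure D4:**
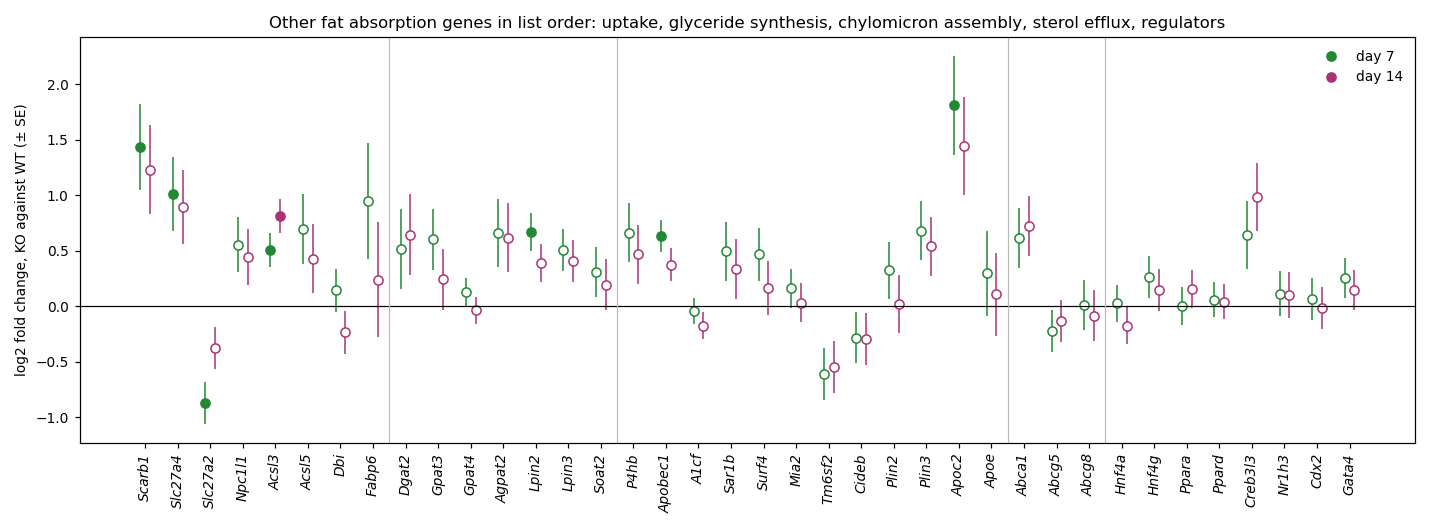
Log2 fold change of KO against WT at day 7 (green) and day 14 (purple) for the 38 other fat absorption genes tested, in the order of the 5 lists, which grey lines separate, with bars of 1 approximate SE. Filled points have an adjusted p under 0.05, which are 7 genes at day 7, with Apoc2 highest at 1.81 and Slc27a2 lowest at -0.88, and Acsl3 (0.81) at day 14.

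For the members other than Apoa1, the gene with the most similar profile was found among the tested genes outside the 10, as the smallest root mean square difference of centred log2 CPM over the 18 libraries, which share depth and preparation. It was Rbp2 for Fabp1 (0.25), Leap2 for Fabp2 (0.33), Treh for Apoc3 (0.25), Pxdc1 for Apob (0.18), Pex16 for Dgat1 (0.09), Plin3 for Mogat2 (0.13) and Adgrd1 for Cd36 (0.32). Of these, Rbp2 and Treh are among the enterocyte markers used here and Plin3 is in the chylomicron list. For Fabp2 another member, Fabp1, was nearer than any gene outside the 10 (0.26). For Apoa4 and Mttp the nearest were Gm10680 (0.02) and Gm43691 (0.06), antisense genes that overlap them.

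Those antisense genes share reads with the members, because strand was not used in the counting and a fragment overlapping several genes was counted for each. Gm10680 had 4470 to 91065 counts per library and Gm47528, also antisense to Apoa4, 1451 to 34602. Gm43691, antisense to Mttp, had 949 to 10483, and Trmt10a, on the same strand as Gm43691, overlaps Mttp with 46 to 162 counts. In these data reads of the member and its antisense partner cannot be told apart. Fabp2 overlaps 4933405D12Rik, which had at most 61 counts, and Mogat2 overlaps Gm45012, which had at most 201. Leaving overlapping genes aside, the nearest profile was that of Ambp for Apoa4 (0.28) and Acsl5 for Mttp (0.15).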

How the data were processed

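The authors aligned reads of ribosomal RNA-depleted total RNA with STAR 2.7.3 and deposited 1 table of counts per gene from featureCounts 1.6.4, without normalization (GENCODE release 23 for mouse, mm10, per the file header, whereas the methods name a later release). Multi-mapped fragments were left uncounted. The deposited exon lengths were used for RPKM. There were 0 unused sample columns. Replicates are separate mice.

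The 20 genes that the study lists as different between the sexes were set aside before TMM scaling. After the group-wise filterByExpr step of edgeR 4.0.16, 21349 genes were fitted with edgeR's quasi-likelihood method (robust, 1 mean per group, all 18 libraries; limma 3.58.1, R 4.3.3) and adjusted after Benjamini-Hochberg. Printed SEs are approximate, from the fold change and its F statistic. Log2 CPM has a prior count of 2. Python 3.11.15, numpy 2.4.6, pandas 2.3.3 and matplotlib 3.10.9 made tables and plots. The fit was tested on simulated data, where it recovered 47.5% of simulated log2 changes of 1 and 82.7% of those of 2 at day 7.

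The members, lists and rules were chosen with earlier results of these data known. Named genes are the members, of the 39 other genes up to 10 called per day by adjusted p, the nearest profile of each member (that of Apoa1 is not reported here), and the most abundant marker of a list. Abca1, Creb3l3, the other single markers, the nearest profiles apart from overlapping genes, the mean effect of days 7 and 14 and the comparison with enterocyte markers (also with their median, without Lct, Rbp2 and Sis, with pairs at day 14, and without single libraries) were chosen after seeing the data. Same-numbered KO and WT libraries correlated at 0.160 to 0.227 at day 14 and were taken as paired there, at -0.159 to 0.206 at day 7 and at 0.0478 to 0.381 at day 2. The alternatives were DESeq2 1.42.0 (Wald test; size factors), scaling without the 20 most abundant genes, no filter, a floor of 50 on the mean count, inclusion of the 20 genes, replicate blocks, a model of the day alone, each library left out, and levels without length scaling.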

Additional observations from a re-analysis of the deposited data

How the results depend on the processing

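At day 2 and for the differences between days, 0 members were called under every setting run, although the day 2 median ran from -0.39 to 0.12 with single libraries left out. At day 7, 2 members were called, with 0 without the filter on low counts, 5 in a model of the day alone (Fabp1, Fabp2, Apoa4, Apoc3 and Mogat2), 5 with a replicate block within the day (Fabp1, Fabp2, Apoa4, Mttp and Mogat2) and 0 to 3 with single libraries left out. Without the filter 9.26% of all genes were called (3.78% higher), in the model of the day alone 14.8% (6.24% higher) and with the block 19.8% (8.7% higher). With single libraries left out, 2051 to 4117 genes were called. Mttp was called in 2 of the 9 other settings without a library left out. At day 14, 0 were called, with 1 by DESeq2's Wald test, 4 with the block within the day and 0 to 2 with single libraries left out. DESeq2 called 9.27% of the genes it tested (4.1% higher) and the block fit 9.86% (4.53% higher). The mean effect of both days gave 5, with 2 without the filter, 8 with the block and 2 to 7 with single libraries left out. Without the filter 14% of all genes were called (6.2% higher), and with the block 28.5% (13.5% higher). Between WT days 7 and 2, 0 were called, with 6 by DESeq2, 1 without the filter and 0 to 3 with single libraries left out, and between WT days 14 and 2, 1 was called, with 5 by DESeq2, 2 at a mean count of at least 50, 0 with the replicate block over all days and 0 to 4 with single libraries left out, while without the filter Fabp2 was lost (adjusted p = 0.0727) and Apob was called in its place. DESeq2 called 9.63% and 8.68% of the genes it tested in these comparisons, and the fit without the filter 2.59% in each. Between WT days 14 and 2, 5.41% of genes were called at a mean count of at least 50 and 0.81% with the replicate block. Other fat absorption genes called numbered 7 at day 7, 12 with the block and 3 to 12 with single libraries left out, and 1 at day 14, 5 by DESeq2, 4 at a mean count of at least 50, 2 in a model of the day alone, 8 with the block and 1 to 3 with single libraries left out. At day 14, 9.79% of genes were called at a mean count of at least 50 and 6.52% in the model of the day alone. The cause was not tested.

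At day 7, where the numbers were not taken as pairs, 3 of 6 libraries correlated best with their own number, and 4 of 6 at day 2. The block results of those days rest on a shared number only. The log2 fold change of Apob ran from -0.09 to 0.19 at day 7 and from -0.04 to 0.57 at day 14 with single libraries left out, and that of Cd36 from -0.36 to 0.04 at day 7. All genes called numbered 3690 at day 7 and 2051 without KO replicate 1, and 1690 at day 14 and 1041 to 1334 with single libraries left out. They numbered 7 at day 2 (2 to 16 over the other settings), 118 between WT days 7 and 2 (0 to 1549 over all settings) and 343 between WT days 14 and 2 (22 to 1397). Without length scaling the order of levels changed to Apob at rank 1, Apoa4 at 2, Mttp at 3, Apoa1 at 4, Fabp2 at 5 and Fabp1 at 6.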
